A study of Mus musculus with 10 samples.

Results

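The globins and erythroid genes were 9 of the 43629 gene identifiers counted in the dorsal telencephalon, the embryonic tissue that forms the cerebral cortex. They were chosen by name. Hba-a1 and Hba-a2 are the adult alpha globins, Hba-x is the embryonic alpha globin, Hbb-bt and Hbb-bs are the adult beta globins, and Hbb-y and Hbb-bh1 are embryonic beta globins. Alas2 is the erythroid form of the enzyme that opens haem synthesis, and Slc4a1 is band 3, the anion exchanger of the red cell membrane. All 9 had a row in the count tables and all 9 passed the filter on low counts.

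Total RNA was sequenced from C57BL/6 embryos at E14.5, with 5 control samples and 5 Dot1l-cKO samples. Controls were Dot1l-cKO f/+, so each carried 1 floxed Dot1l allele, and had no Cre. Mutants were Dot1l-cKO f/f with 1 Cre allele, so the groups differ in the presence of Cre as well as in Dot1l. The Cre driver acts in the telencephalon, and red cells form elsewhere in the embryo. The labels call the samples biological replicates, and the study's methods give the animal as the unit of its in vivo experiments. The comparison asks whether the globin and erythroid transcripts found in this tissue differ with the loss of Dot1l, the gene of the histone H3 lysine 79 methyltransferase.

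Haemoglobin is a tetramer of alpha-type and beta-type globin chains, each holding a haem. In the mouse, the first red cells arise in the yolk sac, carry embryonic globins and mature while they circulate. Around midgestation the fetal liver takes over and releases red cells that carry adult globins, so embryonic and adult cells are mixed in the blood at this stage. The brain does not make red cells, and globin transcripts in brain tissue are commonly read as a measure of the blood left in it. In bulk tissue, fewer red cells and less globin RNA per cell cannot be told apart.

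Total counts ranged from 54202349 to 66556034 per sample. A number opens each sample's column name in the normalised tables, and its meaning is not given in the sources used here. In both groups this header number was 51 in replicate 1, 57 in replicate 2 and in replicate 3, 90 in replicate 4, and another number in replicate 5. Header number 57 marked libraries with 0.0471% to 0.492% of counts in the mitochondrial rRNA genes, against 5.79% to 10.9% in the other 6, so each difference was also computed inside and outside that header number. Dot1l was at 37.3 ± 4.03 CPM in controls and 39.4 ± 11.7 CPM in mutants (SD, n = 5 each), where CPM are counts per 1e+06 of the library size scaled by the trimmed mean of M-values (TMM). A count over a whole gene takes reads from exons that a conditional allele leaves in place, so it does not check the deletion.

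No difference between Dot1l-cKO and control was detected for any of the 9 genes. Their log2 fold changes lay between -0.17 for Hbb-y and 0.21 for Hba-a1, with a median of 0.14, beside a median of -0.01 over the 17039 genes tested. With edgeR's quasi-likelihood test, 0 of 9 had an adjusted p under 0.05, against 7.11% of all genes tested. An unadjusted p under 0.05 was found for 0 of 9, against 3508 of the 17039 genes tested. DESeq2 also called 0, against 10.4% of the 19302 genes to which it gave an adjusted p. The values of the groups overlapped for all 9 genes, whereas 8.34% of the genes tested had groups that did not overlap. The widest limits of the 95% intervals for the fold change were 0.449 for Slc4a1 and 2.29 for Alas2, and a 2-fold rise was inside the interval for 8 of the 9 genes and a 2-fold fall for 3. The spread inside each group was wide. Over the 10 libraries the SD of log2 CPM was between 0.70 and 0.86 for these genes, more than that of at least 92.7% of the genes tested, whose median SD was 0.25.

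**Figure D1:**
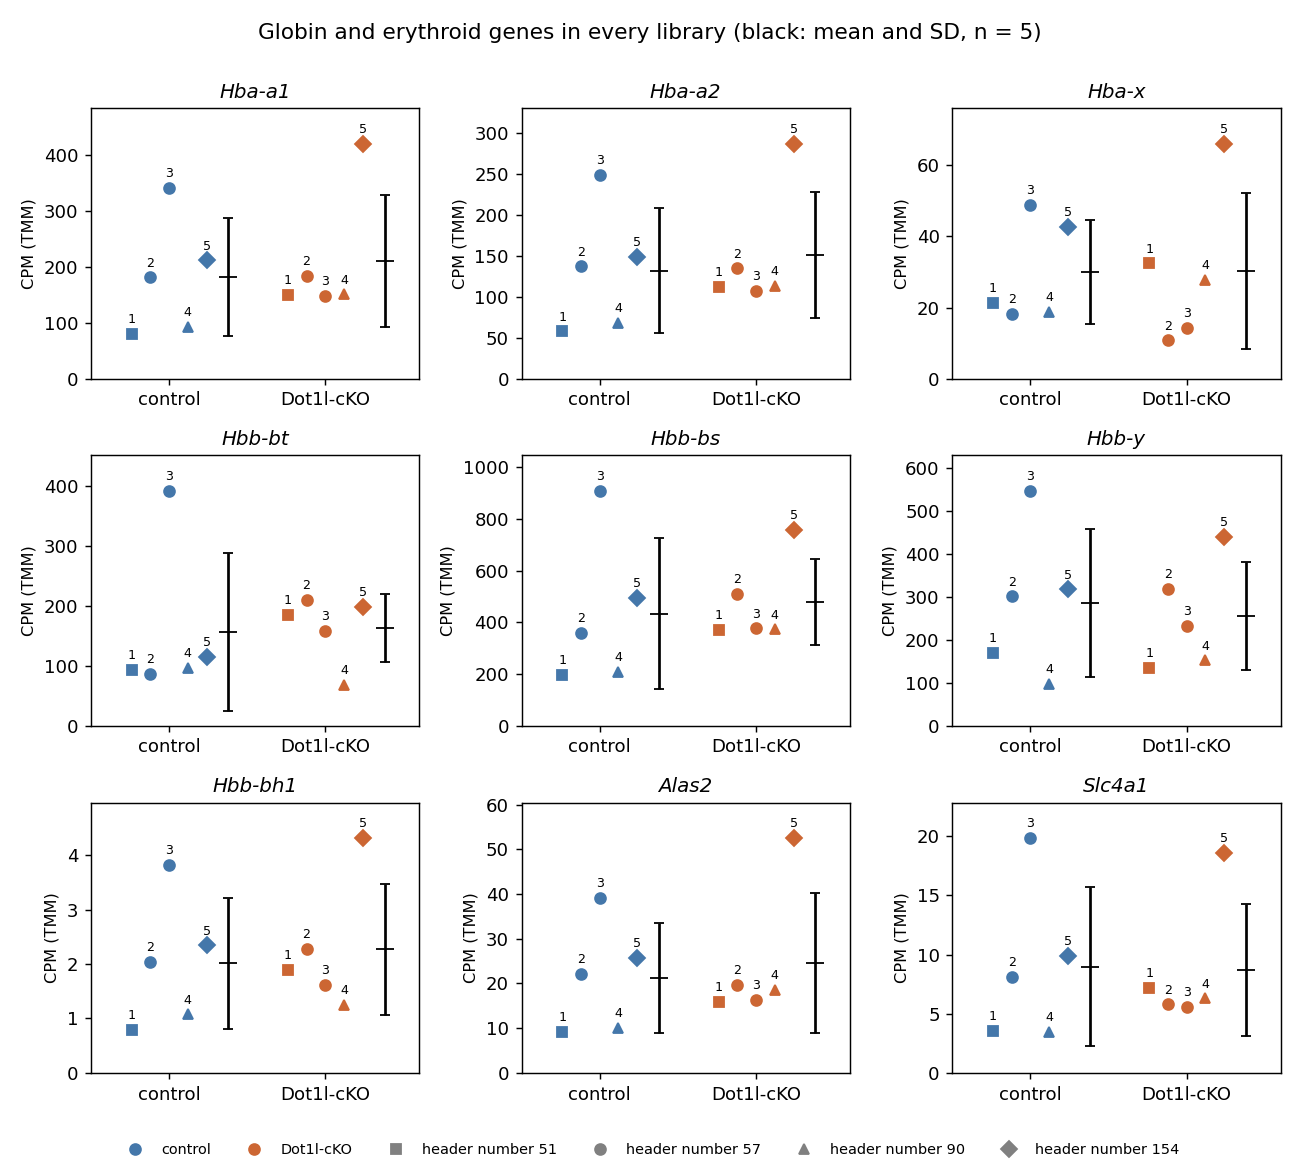
Level of each of the 9 genes in every library, in CPM scaled by TMM on a linear axis that starts at 0. Points carry the replicate number, symbols the header number and colours the group, and the black bar is the mean with the SD of 5 libraries. Control replicate 3 is the highest control for all 9 genes and Dot1l-cKO replicate 5 the highest mutant for 8 of 9, and the groups overlap in every panel.

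The adult alpha globins Hba-a1 and Hba-a2 encode the alpha chain of adult haemoglobin. Hba-a1 (ENSMUSG00000069919, chr11:32283511-32284465, plus strand, GRCm38) had 80.6, 181.4, 341, 93.2 and 211.6 CPM in control replicates 1 to 5. The 5 mutants, in the same order, had 150.0, 183.5, 147.8, 150.7 and 421 CPM. Replicate 3 of the controls and replicate 5 of the mutants stood above the rest, while the other 4 mutants lay inside the control range. The log2 fold change was 0.21 ± 0.42 (SE, edgeR adjusted p = 0.823).

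Hba-a2 (ENSMUSG00000069917, chr11:32296489-32297298, plus strand) followed its twin. Its control values were 57.6, 136.9, 248, 68.2 and 147.9 CPM. The mutants had 111.6, 134.3, 107.1, 113.4 and 286.5 CPM. The same libraries were high and low, the groups overlapped, and the log2 fold change was 0.19 ± 0.40 (SE, edgeR adjusted p = 0.838). The coding sequences of Hba-a1 and Hba-a2 differ at 1 of 426 bases, and 79.5% of the 100-base stretches of Hba-a2 transcripts also occur in those of Hba-a1. HTSeq by default leaves out reads that align to several places, and no other setting is given in the sources used here. So the split between the copies rests on the parts that differ and is uncertain. Reads left out would also lower the levels of both copies, and their number was not counted here. The share of Hba-a1 in the summed counts of both was 56.99% to 59.5% in all 10 libraries.

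Hba-x encodes zeta globin, the embryonic partner of the beta-type chains. This gene (ENSMUSG00000055609, chr11:32276400-32278116, plus strand) had 21.2, 18.1, 48.9, 18.8 and 42.6 CPM in control replicates 1 to 5. Its levels in the mutants were 32.4, 10.8, 14.3, 27.7 and 66.1 CPM. The lowest and the highest value were both in mutants, so the control range lay inside the mutant range, and the log2 fold change was 0.02 ± 0.47 (SE, edgeR adjusted p = 0.991). Its sign changed between fits, with -0.01 in DESeq2 and -0.11 with the replicate number as a block.

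The adult beta globins sit side by side on chromosome 7 and give the adult beta chain. Hbb-bs (ENSMUSG00000052305, chr7:103826534-103828096, minus strand) had 196.9, 360.1, 910.0, 209.1 and 495 CPM in controls. The mutants had 373, 512, 377, 373 and 759 CPM. Mutants spanned a narrower range than controls, 2.04-fold from lowest to highest against 4.62-fold, and lay inside it. The log2 fold change was 0.14 ± 0.40 (SE, edgeR adjusted p = 0.884).

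Hbb-bt (ENSMUSG00000073940, chr7:103812524-103813996, minus strand) had 93.0, 87.1, 392, 96.5 and 114.5 CPM in controls. Control replicate 3 exceeded the other 4 controls by over 3 times. Mutant values were 184.2, 209.9, 157.7, 67.7 and 198.2 CPM, so 4 of the 5 mutants lay above 4 of the 5 controls. The log2 fold change was 0.06 ± 0.45 (SE, edgeR adjusted p = 0.959). Without control replicate 3 it was 0.74 (edgeR adjusted p = 0.135), the lowest adjusted p that any of the 9 genes reached in any alternative fit. Hbb-bt and Hbb-bs differ at 1 of 441 coding bases, and 54.8% of the 100-base stretches of Hbb-bt transcripts occur in those of Hbb-bs. Their split and their levels carry the same uncertainty as those of the alpha copies.

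The embryonic beta globins are the products of yolk sac red cells. Hbb-y (ENSMUSG00000052187, chr7:103851749-103853216, minus strand), the epsilon-type chain, had 169.2, 301.1, 547, 97.6 and 317.3 CPM in controls. Mutant levels were 134.6, 318.0, 233.3, 152.1 and 438.8 CPM. All 5 mutants fell inside the control range, and the log2 fold change was -0.17 ± 0.44 (SE, edgeR adjusted p = 0.875). Hbb-y was the second highest of the 9 genes per length, at a median of 422 CPM per kb of merged exons. It was above the adult Hba-a1, at 204.5 CPM per kb, in 10 of 10 libraries. Reads shared by the adult copies may have been left out, while Hbb-y shares no 100-base stretch with another globin. This order is therefore one of counts, and the order of the transcripts is uncertain.

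Hbb-bh1 (ENSMUSG00000052217, chr7:103841637-103843164, minus strand), which dominates the earliest yolk sac cells, had the fewest counts of the 9 in 10 of 10 libraries. It had 39, 116, 255, 69 and 145 counts in controls and 100, 131, 92, 83 and 268 counts in mutants. That was 0.784 to 3.82 CPM in controls and 1.25 to 4.32 CPM in mutants, with control replicate 3 and Dot1l-cKO replicate 5 again the highest. The log2 fold change was 0.17 ± 0.44 (SE, edgeR adjusted p = 0.870).

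Alas2 (ENSMUSG00000025270, chrX:150547375-150570638, plus strand) supplies the first step of haem synthesis in erythroid cells. Controls had 9.11, 22.2, 39.1, 10.1 and 25.6 CPM. Mutants had 15.9, 19.8, 16.3, 18.5 and 52.6 CPM. Dot1l-cKO replicate 5 was above every control, the other 4 mutants were inside the control range, and the log2 fold change was 0.21 ± 0.45 (SE, edgeR adjusted p = 0.838).

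Slc4a1 (ENSMUSG00000006574, chr11:102348824-102366203, minus strand) encodes band 3, which anchors the red cell skeleton and exchanges chloride for bicarbonate. Its control levels were 3.52, 8.10, 19.9, 3.47 and 9.91 CPM. The mutants had 7.21, 5.79, 5.59, 6.29 and 18.6 CPM. Mutants lay inside the control range, and the log2 fold change was -0.05 ± 0.50 (SE, edgeR adjusted p = 0.975). Its sign was positive with the replicate number as a block, at 0.12.

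Per length, the order of the median levels over the 10 libraries was Hbb-bs, Hbb-y, Hba-a1, Hbb-bt, Hba-a2, Hba-x, Alas2, Hbb-bh1 and Slc4a1, from 488 to 1.38 CPM per kb. Hbb-bs was above Hbb-y in 8 of 10 libraries. Hba-a1 was above Hbb-bt in 4 of 10 libraries and Hbb-bt above Hba-a2 in 6 of 10, so these neighbours could not be ordered. Each of the steps from Hba-a2 down to Slc4a1 held in 10 of 10 libraries. The 7 globins together took 0.0566% to 0.258% of all counts in controls and 0.0883% to 0.222% in mutants. Reads left out over the near-identical adult copies would lower the adult genes in this order, and the globin total.

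Relative to the summed counts of the 7 globins, Alas2 and Slc4a1 varied less than their CPM did. Alas2 had 14.7, 20.4, 15.7, 17.2 and 19.3 counts per 1000 globin counts in controls. In mutants it had 16.1, 14.4, 15.7, 20.8 and 24.2 per 1000. Slc4a1 lay between 5.68 and 7.98 per 1000 in controls and between 4.23 and 8.56 per 1000 in mutants. The ranges of the groups overlapped for both genes.

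The 9 genes rose and fell together from library to library. For 8 of 9, the highest levels of all 10 libraries were in control replicate 3 and Dot1l-cKO replicate 5, and for 7 of 9 the lowest was in control replicate 1 or 4. Pearson's r of the log2 CPM of each gene with the mean of the other 8 over the 10 libraries was 0.96 to 0.98 for Hba-a1, Hba-a2, Hbb-bs, Hbb-bh1, Alas2 and Slc4a1. It was 0.84 for Hbb-y, 0.65 for Hbb-bt and 0.61 for Hba-x. Over the 6 libraries outside header number 57, r was 0.99 for Hba-x, 0.84 for Hbb-y and 0.63 for Hbb-bt. These are descriptions over libraries of similar depth that differed by header number in mitochondrial rRNA, and no test was made of them.

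Promoter sequence is given for 4 genes, to show examples from the alpha cluster, the adult and embryonic beta genes and haem synthesis. Of these, Hbb-bt followed the other members less closely than the rest. RefSeq promoters (GRCm38.p6) were matched for 7 of the 9 genes. Those shown are the 120 bases that end before the earliest annotated start of each gene, 5′ to 3′ on the strand of the gene. The stretches of Hbb-bt and Alas2 end 73 and 42 bases before the RefSeq start, so the TATAA of Hbb-bt and the nearest CACCC of Alas2, at 28 and 30 bases before it, lie outside them. Capitals mark the CCAAT box, the CACCC box, the TATAA box and the GATA motif, each on either strand. The GATA motif was searched as AGATAA with A or T as its first letter and A or G as its last.
Hba-a2, chr11:32296369-32296488, plus strand: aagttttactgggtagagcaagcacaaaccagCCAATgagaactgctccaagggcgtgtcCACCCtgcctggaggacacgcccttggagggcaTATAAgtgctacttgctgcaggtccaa
Hbb-bt, chr7:103813997-103814116, minus strand: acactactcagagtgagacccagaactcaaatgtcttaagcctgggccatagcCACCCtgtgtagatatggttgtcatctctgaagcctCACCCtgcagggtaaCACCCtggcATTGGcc
Hbb-y, chr7:103853217-103853336, minus strand: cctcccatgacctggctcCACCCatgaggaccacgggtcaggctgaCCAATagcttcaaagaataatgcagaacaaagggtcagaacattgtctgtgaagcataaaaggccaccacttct
Alas2, chrX:150547255-150547374, plus strand: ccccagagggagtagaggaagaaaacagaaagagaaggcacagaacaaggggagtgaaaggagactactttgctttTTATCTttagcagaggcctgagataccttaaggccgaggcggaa

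In the 250 bases before the RefSeq start, CACCC was found in 7 of 7 matched members, against 52.0% of 32851 promoters. CCAAT was found in 5 of 7, against 33.8%, the GATA motif in 6 of 7, against 26.5%, and TATAA in 6 of 7, against 22.8%. Alas2 and Hba-x held no CCAAT, Hbb-bt no GATA motif and Hbb-y no TATAA in this window. A match is a description of letters and not a bound site. The windows of Hba-a1 and Hba-a2 were identical at 247 of 247 bases once shifted by 3. Hbb-bs and Hbb-bt matched at 70 of 247 bases under the same shift and at 51 of 250 without it. That shift is the one that aligns the alpha pair, and no other was tried for the beta pair. The beta counts therefore do not measure how alike these 2 promoters are.

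The make-up of the globin counts was described next, as shares that do not depend on how much globin RNA a library held. Reads left out over the adult copies would raise the embryonic shares and could shift the alpha-type share. The shares therefore compare libraries and are not true proportions of the transcripts. Embryonic Hbb-y and Hbb-bh1 took 37.0%, 40.4%, 29.7%, 24.4% and 34.4% of the beta-type counts in control replicates 1 to 5. In mutants the share was 19.7%, 30.7%, 30.5%, 25.8% and 31.6%. The group means were 33.2 ± 6.26% and 27.7 ± 5.01% (SD, n = 5 each) and the ranges overlapped, with control replicate 2 highest and Dot1l-cKO replicate 1 lowest. The widest 95% exact binomial interval of a single share was ± 0.625 points and covers counting error only, so the libraries differed by more than counting error within each group.

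For the alpha-type counts, embryonic Hba-x took 13.3%, 5.39%, 7.67%, 10.4% and 10.6% in controls. The mutants had 11.03%, 3.27%, 5.33%, 9.48% and 8.55%. The 4 libraries of header number 57 lay between 3.27% and 7.67% and the other 6 between 8.55% and 13.3% without overlap. The mutant was below the control of the same replicate number in 5 of 5 pairs, with differences between -0.921 and -2.34 points. That the same number marks a pair was not shown, and replicates 2 and 3 share header number 57, so these differences depend on how they are paired. The group means were 9.47 ± 3.03% and 7.53 ± 3.17% (SD, n = 5 each). No p is given for a share of chosen members. Header number 57 also marks the libraries low in mitochondrial rRNA, and the part of library preparation in the share of Hba-x was not tested. The embryonic share of the beta-type counts was lower in the mutant in 3 of 5 such pairs and did not split by header number, at 29.7% to 40.4% in header number 57 and 19.7% to 37.0% in the others.

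Alpha-type counts were 25.7%, 31.0%, 25.6%, 30.8% and 30.2% of all globin counts in controls and 29.8%, 23.98%, 25.9%, 32.9% and 35.6% in mutants. Hbb-bh1 stayed between 0.171% and 0.308% of the beta-type counts in all 10 libraries. The 95% exact binomial intervals of the lowest and highest, 0.121% to 0.233% and 0.273% to 0.348%, did not meet, while the group means were 0.233 ± 0.0434% in controls and 0.244 ± 0.0445% in mutants.

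Hbb-bt had a make-up of its own. Its share of the adult beta counts was 32.1%, 19.5%, 30.1%, 31.6% and 18.8% in controls. In mutants it was 33.1%, 29.1%, 29.5%, 15.4% and 20.7%. The shares lay at 15.4% to 20.7% in 4 libraries and at 29.1% to 33.1% in the other 6, with none between, and both ranges held control and mutant libraries. Replicates 2 and 3 of the controls, which share header number 57, were on opposite sides, as were control replicate 4 and Dot1l-cKO replicate 4, which share header number 90.

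**Figure D2:**
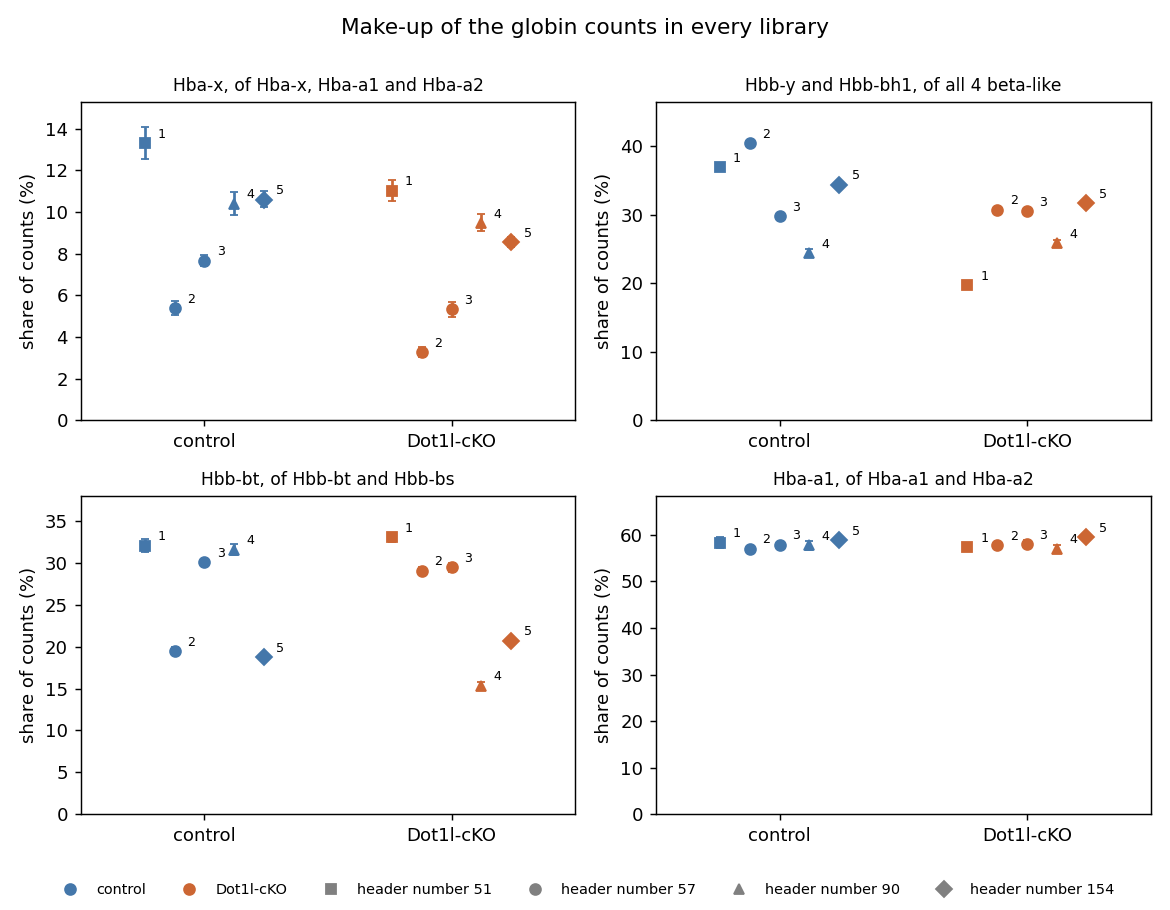
Share of counts in every library for 4 ratios within the globins, in percent on axes that start at 0, with 95% exact binomial intervals that cover counting error only. Points carry the replicate number, symbols the header number and colours the group. The share of Hba-a1 is level at 56.99% to 59.5%, that of Hbb-bt falls into ranges of 15.4% to 20.7% and 29.1% to 33.1% in both groups, and that of Hba-x is lowest in the libraries of header number 57.

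Within header numbers the direction of the difference was not the same. Among the libraries of header number 57, 2 control and 2 Dot1l-cKO, all 9 genes were lower in the mutants, with log2 fold changes between -0.36 for Hbb-bt and -1.40 for Hba-x. Of these 0 passed an edgeR adjusted p of 0.05, the lowest being 0.288, where 0.00581% of 17202 genes passed. An unadjusted p under 0.05 was found for 3 of the 9 genes, and its share over all genes in this fit was not counted. Among the other 6 libraries, 3 against 3, all 9 genes were higher in the mutants, between 0.32 for Hbb-y and 0.96 for Alas2. Again 0 passed, where 4.31% of 17294 genes passed, and the lowest edgeR adjusted p was 0.330. DESeq2 was not run within header numbers. Control replicate 3, the highest control, is in the first set of libraries, and Dot1l-cKO replicate 5, the highest mutant, in the second.

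The difference between these contrasts was tested as an interaction of genotype with header number 57, chosen after the data were seen. It lay between -0.93 for Hbb-y and -2.22 for Slc4a1 on the log2 scale. The edgeR adjusted p was between 0.728 and 0.775, the unadjusted p was 0.0182 for Hba-x, 0.0258 for Slc4a1 and 0.0498 for Hba-a2, and 0 of 17039 genes had an adjusted p under 0.05. So the opposite directions were not shown to differ. Adding header number as a block left 0 of 9 genes past the threshold.

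**Figure D3:**
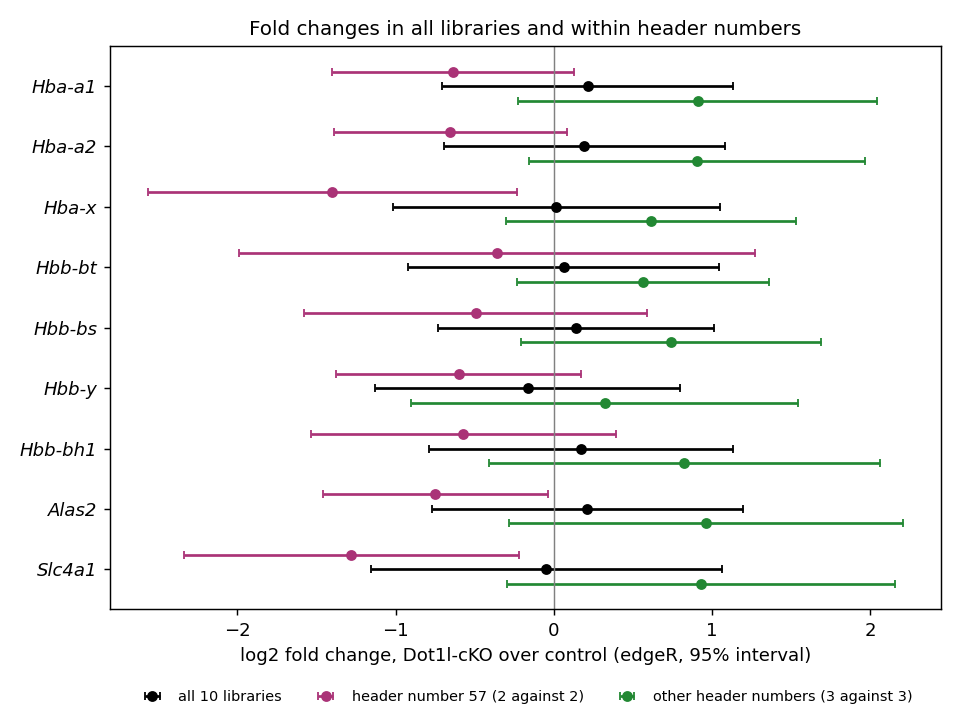
Log2 fold change of each gene, Dot1l-cKO over control, with its 95% interval from edgeR, in all 10 libraries (black), in the 4 of header number 57 (purple) and in the other 6 (green). The estimates from all libraries lie between -0.17 and 0.21, those of header number 57 are all below 0 and those of the others all above 0.

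The direction depended on which single library was left out. Without control replicate 3, all 9 log2 fold changes were above 0, from 0.21 for Hbb-y to 0.74 for Hbb-bt. Without Dot1l-cKO replicate 5, all 9 were below 0, from -0.02 for Hbb-bt to -0.53 for Slc4a1. With both left out, 6 were above 0 and 3 below, between -0.25 for Hba-x and 0.65 for Hbb-bt. In each of these fits 0 of the 9 genes had an edgeR adjusted p under 0.05. An unadjusted p under 0.05 was reached by 1, 0 and 1 of them, and its share over all genes in these fits was not counted. Between same-numbered samples, the share of globins in all counts was lower in the mutant in 1 of 5 pairs, replicate 3.

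Other genes of the red cell programme were taken from lists of haem and iron genes, haemoglobin partners, membrane and skeleton genes, and regulators. Of 59 symbols listed, 57 had a row and 48 passed the filter on low counts. In edgeR 0 of the 48 changed, against 7.11% of all genes tested, with a smallest adjusted p of 0.0835 for Uros. An unadjusted p under 0.05 was found for 6 of the 48, against 3508 of all 17039 genes tested. The median log2 fold change was -0.06, beside -0.01 over all genes tested, with 22 above 0 and 26 below. DESeq2 called 1 of the listed genes, against 10.4% of all genes, and this was Ldb1, a cofactor of the erythroid transcription complex that many other cells also make, which was lower in the mutants by -0.20 on the log2 scale (DESeq2 adjusted p = 0.0435).

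Many of these genes are also used by other cells of the tissue. By mean CPM the highest of the 48 were Prdx2, Ldb1, Epb41, Bcl11a and Add2. Prdx2, a peroxidase abundant in red cells, was at 870.2 ± 41.4 CPM in controls and 835.8 ± 71.2 CPM in mutants (SD, n = 5 each). Epb41, the protein 4.1 of the membrane skeleton, was at 224.9 ± 13.2 and 196.9 ± 40.8 CPM, and its partner Add2, beta adducin, at 157.9 ± 32.0 and 172.5 ± 20.1 CPM. Ldb1 was at 228.3 ± 8.85 and 202.0 ± 15.4 CPM. Bcl11a, which silences embryonic globins in red cells and is also a cortical transcription factor, was at 225.4 ± 15.3 and 190.6 ± 28.9 CPM, with a log2 fold change of -0.24 (edgeR adjusted p = 0.221). None of these 5 followed the globins, with r to the mean of the 9 genes of -0.64 for Prdx2 and between -0.34 and 0.18 for the other 4.

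The regulators particular to red cells were low. Klf1, the activator of adult beta globin, was at 0.685 ± 0.291 CPM in controls and 0.793 ± 0.142 CPM in mutants (log2 fold change 0.21, edgeR adjusted p = 0.726). Epor, the erythropoietin receptor, was at 0.324 ± 0.206 and 0.563 ± 0.158 CPM (log2 fold change 0.78, edgeR adjusted p = 0.260). Without control replicate 3 the log2 fold change of Epor was 1.27 and passed the threshold (edgeR adjusted p = 0.0178), as did that of Steap3, a ferrireductase of iron uptake, at 0.86 (edgeR adjusted p = 0.0419). These were the only 2 of the other erythroid genes that passed in that fit, where 1337 of all 17186 genes tested passed. Gata1, the master regulator of the lineage, had at most 0.299 CPM and did not pass the filter. Hbb-bh2, another gene of the beta cluster, had 0 counts in 9 of 10 libraries and 1 count in the other.

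By likeness of log2 CPM over the 10 libraries, the 10 genes closest to the mean of the 9 included Tent5c, Trim10, Kel, Mylk3, Fam43a, Rhoj, Ehbp1l1 and Itga3, with Pearson's r from 0.98 for Tent5c to 0.92 for Itga3. Tent5c, a poly(A) polymerase, was at 6.65, 13.3, 22.7, 6.43 and 14.2 CPM in controls and 11.4, 10.2, 10.3, 9.59 and 26.6 CPM in mutants. Trim10 is an erythroid ubiquitin ligase and Kel a red cell surface peptidase, and both were in the lists. Among 12 tested genes of a list restricted to red cells, 6 had r above 0.9, against 0.241% of the other 17030 genes tested. No gene of the endothelial, meningeal, platelet, choroid plexus, microglial or dorsal telencephalon lists did. Below that cut, several of these lists also followed the 9 genes. The median r was 0.775 for endothelium, 0.734 for meninges and 0.703 for platelets, against 0.858 for the red cell list. It was 0.515 for microglia, 0.376 for choroid plexus, 0.0733 for dorsal telencephalon and -0.00575 for all genes tested but the members.

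The libraries with the most globin were also the highest in several markers of other tissues. Summed markers of the meninges, the membranes around the brain, were at 866 CPM in control replicate 3 and 794.5 CPM in Dot1l-cKO replicate 5, against 25.5 to 315 CPM in the other 8 libraries, and all 8 markers listed were detected. The 10 endothelial markers summed to 290.6 and 331.5 CPM in these libraries and to 145.0 to 244.8 CPM in the others. The 18 genes of the red cell list that had a row summed to 24.9 and 20.6 CPM, against 5.42 to 11.8 CPM. The 8 platelet markers summed to 19.2 and 14.8 CPM, against 6.04 to 13.7 CPM, and 6 of them passed the filter. The 7 neutrophil markers summed to 2.34 and 1.06 CPM, against 0.0779 to 0.667 CPM, with Elane and Camp at 0 in 8 of 10 libraries each and none tested. None of the tested genes of these lists differed between genotypes in edgeR, with smallest adjusted p values of 0.865 for the meninges, 0.580 for endothelium, 0.260 for the red cell list and 0.794 for platelets. Their unadjusted p was never under 0.05, against 3508 of all 17039 genes tested, and DESeq2 called 0 genes of these 4 lists.

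Markers of other tissues also differed between libraries. The 7 choroid plexus markers summed to 562, 13.7, 663.5, 3.16 and 3.15 CPM in controls and 53.5, 9.73, 33.4, 5.14 and 160.9 CPM in mutants, and the 7 pericyte markers to 101.1 to 167.4 and 90.01 to 194.1 CPM. In neither list did a gene differ between genotypes in edgeR, and 0 had an unadjusted p under 0.05, against 3508 of all 17039 genes tested. DESeq2 called 0 as well. The 11 markers of the dorsal telencephalon summed to 2182 to 2393 CPM in controls and 2156 to 2558 CPM in mutants, none was at 0, and 1 of 11 changed in edgeR, against 7.11% of all genes tested that changed and 1.44% that fell. This was Pax6, a transcription factor of radial glia, at -0.36 on the log2 scale (edgeR adjusted p = 0.0294). DESeq2 called 3 of 11, Pax6 among them, against 10.4% of all genes.

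In edgeR the list of microglia and macrophage markers held more changed genes than any other marker list. Its 12 markers summed to 50.4 to 110.8 CPM in controls and 104.6 to 181.2 CPM in mutants, and 10 of 12 rose in edgeR, against 5.67% of all genes tested that rose. Mrc1 and Ptprc did not pass (edgeR adjusted p = 0.887 and 0.221). Mrc1 was at 13.3 ± 10.7 CPM in controls and 16.0 ± 15.6 CPM in mutants (SD, n = 5 each), so the rise did not extend to every marker of the list. The genes that changed most were Fcrls, with a log2 fold change of 1.19 (edgeR adjusted p = 0.000360), and Trem2, at 1.11 (edgeR adjusted p = 0.00215). P2ry12, the purinergic receptor of microglia, was at 3.19 ± 0.302 CPM in controls and 6.84 ± 0.403 CPM in mutants (SD, n = 5 each, edgeR adjusted p = 0.000231). The summed level of the 7 globins, beside this, was 584.5 to 2491 CPM in controls and 885.9 to 2174 CPM in mutants. The part of carried-over tissue or blood in the globin levels was not tested.

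**Figure D4:**
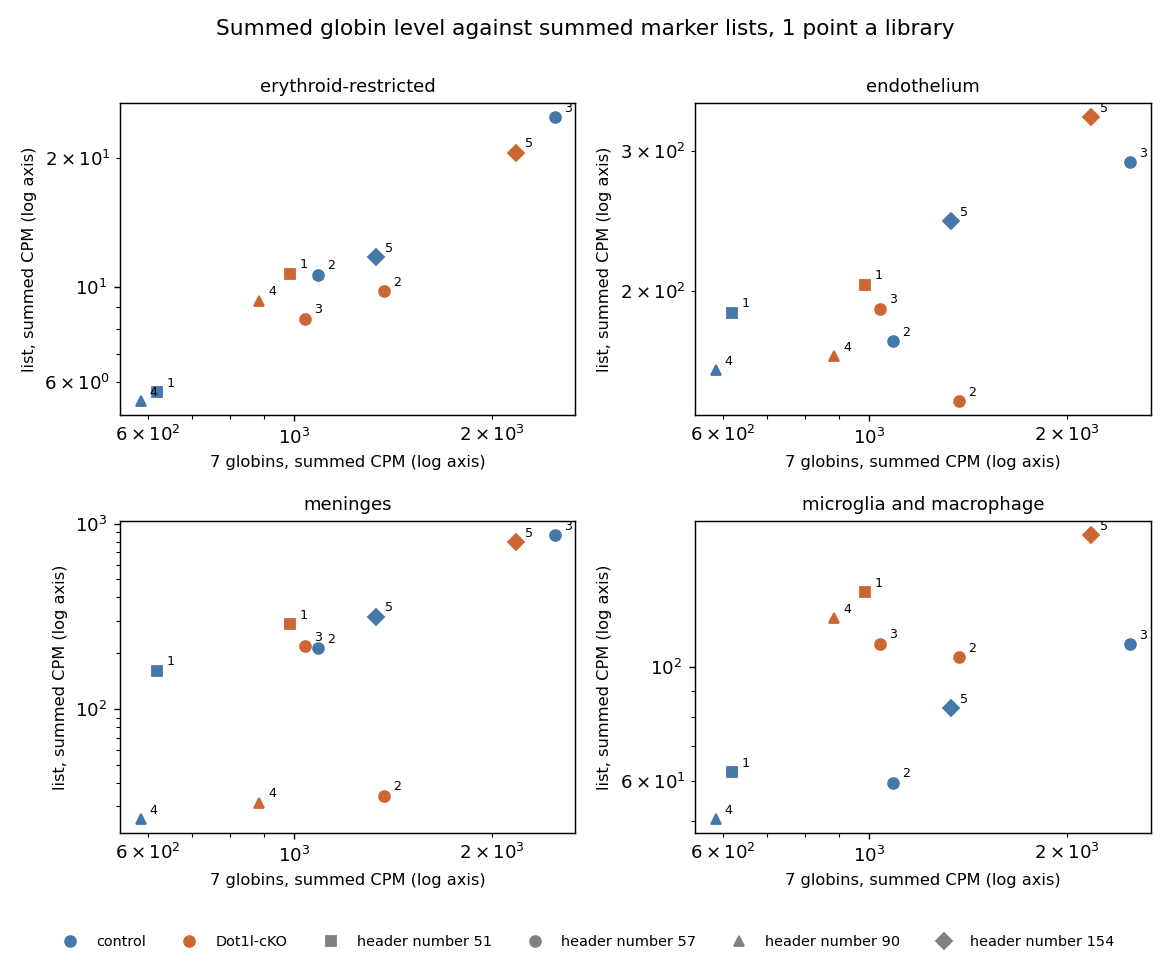
Summed CPM of the 7 globins (horizontal) against summed CPM of 4 marker lists (vertical) in each library, on log axes. Points carry the replicate number, symbols the header number and colours the group. Control replicate 3 and Dot1l-cKO replicate 5 are at the upper right for the red cell, endothelial and meningeal lists, with 866 and 794.5 CPM of meningeal markers, while the microglia list is higher in mutants at similar globin levels.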

How the data were processed

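Whole-number counts per gene, deposited by the authors, were used for 10 dorsal telencephalon samples of E14.5 mouse embryos. Per the labels and the study's methods, stranded libraries of ribosomal-RNA-depleted total RNA were trimmed with Trim Galore 0.2.8, mapped to mm10 with TopHat2 2.0.9 and counted over Ensembl release 79 with HTSeq 0.6.0 in reverse-stranded mode, without molecular identifiers. The authors also deposited a normalised signal per gene, these counts divided by a size factor from DESeq2 1.6.1, which was used in 1 alternative. Of 43629 identifiers, 42462 were matched to a symbol in GENCODE of the same build, which gave positions and exon lengths.

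Counts were tested with edgeR 4.0.16 in R 4.3.3 after filterByExpr and TMM scaling, by a two-sided quasi-likelihood test of genotype without covariates. P-values were adjusted by Benjamini-Hochberg over all 17039 genes tested, at a threshold of 0.05. The SE is the size of the log2 fold change divided by the square root of F. CPM are per 1e+06 of the TMM library size, and log2 CPM used a prior count of 2. The scripts were tested on simulated data. No pair of libraries of a group agreed within counting noise (chi-square per degree of freedom of at least 30.8), so n = 5 per group. Shares have 95% exact Clopper-Pearson intervals. The labels give both groups replicate numbers 1 to 5. Same-numbered samples deviated together, with correlations of 0.229, 0.349, 0.145, 0.597 and 0.131, against a mean of -0.0717 for other numbers. The sample of the same number was the closest of the other group in both directions for replicates 1 and 4, and not in both for 2, 3 and 5. Same-numbered samples also share a header number, so these correlations cannot tell pairs from header numbers. The numbers were used to pair samples in 1 alternative and in descriptions, and the main test was unpaired. The number that opens the column names groups the same samples.

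The alternatives were DESeq2 1.42.0, DESeq2 size factors, no filter, a minimum of 10 counts per sample, and the replicate or header number as a block. Others removed the mitochondrial genes from the counts, left the members out of scaling, or used limma 3.58.1 on log2(normalised counts + 1). Each library was also left out in turn, and fits were made within header number 57 and the others. The interaction fit and the joint omission of 2 libraries were added after the data were seen.

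The members and all gene lists were chosen with earlier results of these data known. Named are the 9 members, of the other erythroid genes those past the threshold, the 5 highest by mean CPM and Gata1, Klf1 and Epor, the 10 genes of highest Pearson's r with the mean log2 CPM of the members, and markers past the threshold or at 0, at most 5 a list. Some items that this rule selects are left out of the text. Genes named beyond this rule were chosen after their values were seen. Reads over near-identical globin copies were not analysed here, and promoters of Hbb-bh1 and Slc4a1 and protein sequences were not used here.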

Additional observations from a re-analysis of the deposited data

Results flagged for a closer look

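The levels of the 9 genes and 7 shares were examined for 1 library standing apart from the other 4 of its group, 32 groups in all, of which 6 had such a library. Chance gives about 1 in 20. The measure is the gap of the end library to its neighbour over the range of the group on the log2 CPM scale, with a critical value of 0.71 for 5 samples. Dot1l-cKO replicate 5 stood apart as the highest mutant for Hba-a1 (0.793), Hba-a2 (0.770), Alas2 (0.820) and Slc4a1 (0.788), at 8.72, 8.16, 5.72 and 4.22 log2 CPM against medians of 7.24, 6.83, 4.21 and 2.66. Control replicate 3 stood apart as the highest control for Hbb-bt (0.818), at 8.62 log2 CPM against a median of 6.59. Dot1l-cKO replicate 4 stood apart as the lowest mutant for Hbb-bt (0.747), at 6.08 log2 CPM against a median of 7.53. These genes move together over libraries, so the flags are not independent of each other.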

How the results depend on the processing

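Each of the 9 genes was fitted in 22 alternatives. Direction was kept in 155 of these 198 fits and changed in 43, and 0 passed an adjusted p of 0.05, the lowest being 0.135. Within header number 57 the log2 fold changes turned to -0.64 (Hba-a1), -0.65 (Hba-a2), -1.40 (Hba-x), -0.36 (Hbb-bt), -0.49 (Hbb-bs), -0.57 (Hbb-bh1) and -0.75 (Alas2). In the other header numbers Hbb-y turned to 0.32 and Slc4a1 to 0.93. Hba-x also turned negative, at -0.0079 with DESeq2, -0.0032 with its size factors, -0.11 with the replicate block, -0.18 with the header-number block, -0.17 with limma and -0.25 without control replicate 3 and Dot1l-cKO replicate 5. Slc4a1 turned positive, at 0.12 with the replicate block, 0.0485 with the header-number block and 0.0692 with limma. The replicate block changed no call among the members and gave 1604 DE genes in place of 1212. DE genes numbered 2011 with DESeq2, 745 in the other header numbers, 495 at an adjusted p under 0.01 and 1 within header number 57, where only 4 libraries were fitted. Otherwise the cause of these changes was not tested. Of the other erythroid genes, 1 passed with DESeq2 (Ldb1), 1 with the header-number block (Tfrc) and 1 without the 2 libraries together (Epor), and without control replicate 5 Dmtn passed. Over all genes these 4 fits, in the same order, gave 2011, 1818, 1051 and 1357 DE genes. Leaving out 1 library at a time gave ranges of -0.20 to 0.57 (Hba-a1), -0.18 to 0.55 (Hba-a2), -0.50 to 0.26 (Hba-x), -0.0904 to 0.74 (Hbb-bt), -0.0915 to 0.60 (Hbb-bs), -0.45 to 0.21 (Hbb-y), -0.20 to 0.54 (Hbb-bh1), -0.28 to 0.55 (Alas2) and -0.53 to 0.47 (Slc4a1), 750 to 1357 DE genes and 0 to 2 among the other erythroid genes. The mean summed globin level ranged over 905.5 to 1382 CPM in controls and 1071 to 1393 CPM in mutants, and the mean embryonic share of beta-type counts over 31.4% to 35.4% and 26.7% to 29.7%. The spread between libraries, more than the depth of counting, limits the precision for the 9 genes.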

Other observations

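The share of Hbb-bt in the adult beta counts fell into 2 ranges that crossed genotype and header number. Chosen after its values were seen, Gm15446 had the log2 CPM most like this share over the 10 libraries (Pearson's r = 0.93, as a description). It was at 0.436 to 0.693 CPM in the 4 libraries with Hbb-bt at 15.4% to 20.7% and at 7.37 to 17.3 CPM in the 6 with Hbb-bt at 29.1% to 33.1%. Ccdc73 had r = 0.92, at 0.573 to 0.807 CPM and 0.858 to 1.06 CPM in these sets. The lowest and highest of 4833420G17Rik were 64.7 and 69.0 CPM in the first set and 74.85 and 86.2 CPM in the second. These sets were drawn from the data and are not groups of the study, so no test was made between them.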
